A study of Homo sapiens with 27 samples.

Results

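The amino acid transporter families were measured as 53 genes of the 15240 genes named on the array, chosen because their symbol in the platform's probe table began with SLC1A, SLC3A, SLC6A, SLC7A, SLC36A, SLC38A or SLC43A. They comprised 7 SLC1A, 2 SLC3A, 17 SLC6A, 14 SLC7A, 4 SLC36A, 6 SLC38A and 3 SLC43A genes. In all they had 58 probes, and where a gene had several the probe with the highest mean log2 intensity stood for it. The prefix also took in SLC7A6OS, a gene opposite SLC7A6 that does not encode a transporter, and the calls below were the same 14 and 16 without it.

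Gene expression was measured with a one-colour oligonucleotide array in U937, an established line from a human histiocytic lymphoma that resembles monocytes. The 3 groups were cells given 10 µM PBD150 for 2 h and then lipopolysaccharide (LPS, a bacterial cell wall component) at 4 µg/ml, cells given LPS alone at 4 µg/ml, and untreated cells. All were U937 cells held in culture for 48 h. Each group had 3 biological replicates, called cultures here, each read on 3 arrays. PBD150 inhibits glutaminyl cyclase, and the series title asks how the activity of that enzyme affects gene expression in macrophages during inflammation. The labels call the cells macrophages, name no agent that would have differentiated them, and do not say whether the replicates were separate cultures or came from 1 clone.

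Animal cells take up and exchange amino acids through carriers of the solute carrier (SLC) superfamily. Many SLC7 proteins are light chains that reach the cell surface only when bound to an SLC3 heavy chain, while the cationic amino acid transporters of the same family work alone. SLC1 carries glutamate and small neutral amino acids with sodium, SLC6 carries neurotransmitters, osmolytes and neutral amino acids with sodium and often chloride, and SLC38 carries glutamine and other neutral amino acids with sodium. SLC36 couples amino acids to protons, and SLC43 holds facilitative carriers. In macrophages these carriers supply arginine for nitric oxide and polyamine synthesis, cystine for glutathione and glutamine for energy metabolism.

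Array medians ran from 41.5 to 100.3 intensity units and 69.0% to 77.8% of the probes of an array lay above its noise limit, set at 3 times the quadratic mean of its negative values. The arrays of untreated culture 1 stood apart, with log2 medians of 5.37 to 5.55 against 6.12 to 6.23 in the other 2 untreated cultures, and calls without that culture are given below. All values below are log2 intensities after quantile normalisation, which removes this difference, averaged over the 3 arrays of a culture. After normalisation the noise limits of the arrays lay at 3.72 to 4.39. All 11 measured monocyte and macrophage markers of 12 listed were above the noise limit on every array, and their mean in a culture was 11.9 to 12.3 with PBD150 plus LPS, 12.0 to 12.1 with LPS and 9.94 to 10.0 in untreated cells. Of these 11, 6 were called higher and 1 lower in each comparison with untreated cells. The lower one, ELANE, was at -0.85 with LPS and -0.95 with PBD150 plus LPS. SPI1, LYZ and MPO were at -0.14, -0.65 and -0.24 with LPS and did not pass. CD14 rose most, by 6.92 with LPS and 6.98 with PBD150 plus LPS. The scanner limited such values, since CD14 was at the top of its range on 9 of 9 LPS arrays. TYROBP was there on 6 of 9 LPS arrays, and ELANE on 8 of 9 untreated arrays. The means of marker lists of other cell types moved less, but not every median did. The median difference of the epithelium markers was 1.40 with LPS and 1.44 with PBD150 plus LPS. For the monocyte and macrophage markers it was 1.55 and 1.32. The mean of 5 T cell markers in a culture was 7.43 to 7.56 with PBD150 plus LPS, 7.32 to 7.86 with LPS and 6.70 to 6.92 in untreated cells. For 3 B cell markers it was 7.36 to 7.58 with PBD150 plus LPS, 7.45 to 7.92 with LPS and 7.79 to 7.97 in untreated cells. Of the T cell markers 1 passed in each comparison, CD2, at 2.92 with LPS and 2.54 with PBD150 plus LPS. Of the B cell markers CD79A fell in both comparisons, and MS4A1 rose with LPS. For 5 fibroblast markers the mean was 6.01 to 6.31 with PBD150 plus LPS, 5.81 to 6.22 with LPS and 5.53 to 5.60 in untreated cells. For 4 epithelium markers it was 5.06 to 5.21 with PBD150 plus LPS, 4.98 to 5.19 with LPS and 3.26 to 4.27 in untreated cells, where 0 of the 4 were above noise on every array. EPCAM and KRT5 rose in both comparisons, as did the fibroblast marker DCN. For 4 neuron markers the groups overlapped, at 4.73 to 5.31 with PBD150 plus LPS, 4.56 to 5.60 with LPS and 4.65 to 5.58 in untreated cells. Of the neuron markers SNAP25 and SYN1 were above noise on 0 of 27 arrays, SYT1 and STMN2 were above it on all 27, and none passed in either comparison. The part of these marker shifts in the transporter differences was not tested.

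Of the 53 transporter genes, 29 were above the noise limit on all 27 arrays, 21 on some and 3 (SLC38A4, SLC6A7 and SLC7A11) on none. Their mean log2 intensity reached that of the median named gene, 7.01, in 20 cases. The median SD between cultures was 0.37 with PBD150 plus LPS, 0.42 with LPS and 0.18 in untreated cells, against 0.37, 0.36 and 0.21 over all probes.

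**Figure D1:**
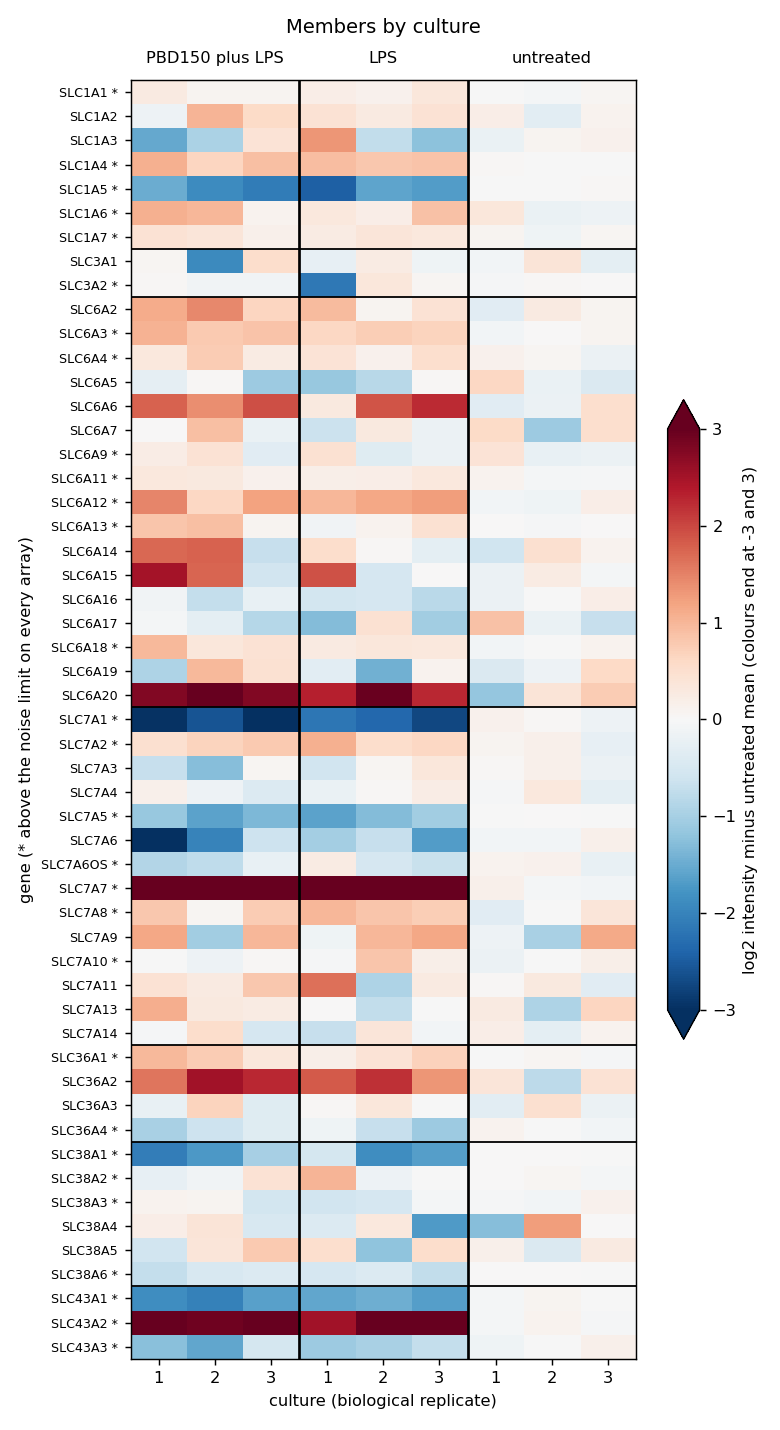
Log2 intensity of each of the 53 genes (rows, by family) in each culture (columns), minus the mean of that gene's 3 untreated cultures. SLC7A7, SLC43A2 and SLC6A20 are red in all 6 LPS-treated cultures, SLC7A1 and SLC1A5 are blue in all 6, and SLC3A2 is blue in LPS culture 1, at 10.63 against 13.11 and 12.83 in LPS cultures 2 and 3.

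LPS changed a minority of the transporters. At a Benjamini-Hochberg adjusted p under 0.05 over all 30968 probes (limma), 8 of 53 were higher with LPS than untreated, or 15.1% against a background of 13.5% of all named genes, and 6 were lower, or 11.3% against 15.4%. These shares are near the background and are not a result about the families. With PBD150 plus LPS, 9 were higher than untreated (17.0%, background 15.3%) and 7 lower (13.2%, background 17.9%). At an unadjusted p under 0.05 the counts were 10 higher and 9 lower with LPS (background 20.0% and 21.4%), and 13 higher and 9 lower with PBD150 plus LPS (background 22.4% and 22.8%). The median difference from untreated was 0.09 with LPS and 0.16 with PBD150 plus LPS, against 0.045 and 0.058 over all named genes. Cultures did not overlap in 16 genes that were higher with LPS (background 25.8%) and 10 that were lower (background 24.7%). The PBD150 plus LPS and LPS comparisons use the same untreated cultures, so their differences are given side by side and are not independent. Without untreated culture 1 there were 6 higher and 4 lower with LPS, and 7 higher and 6 lower with PBD150 plus LPS. The background without that culture was not counted.

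**Figure D2:**
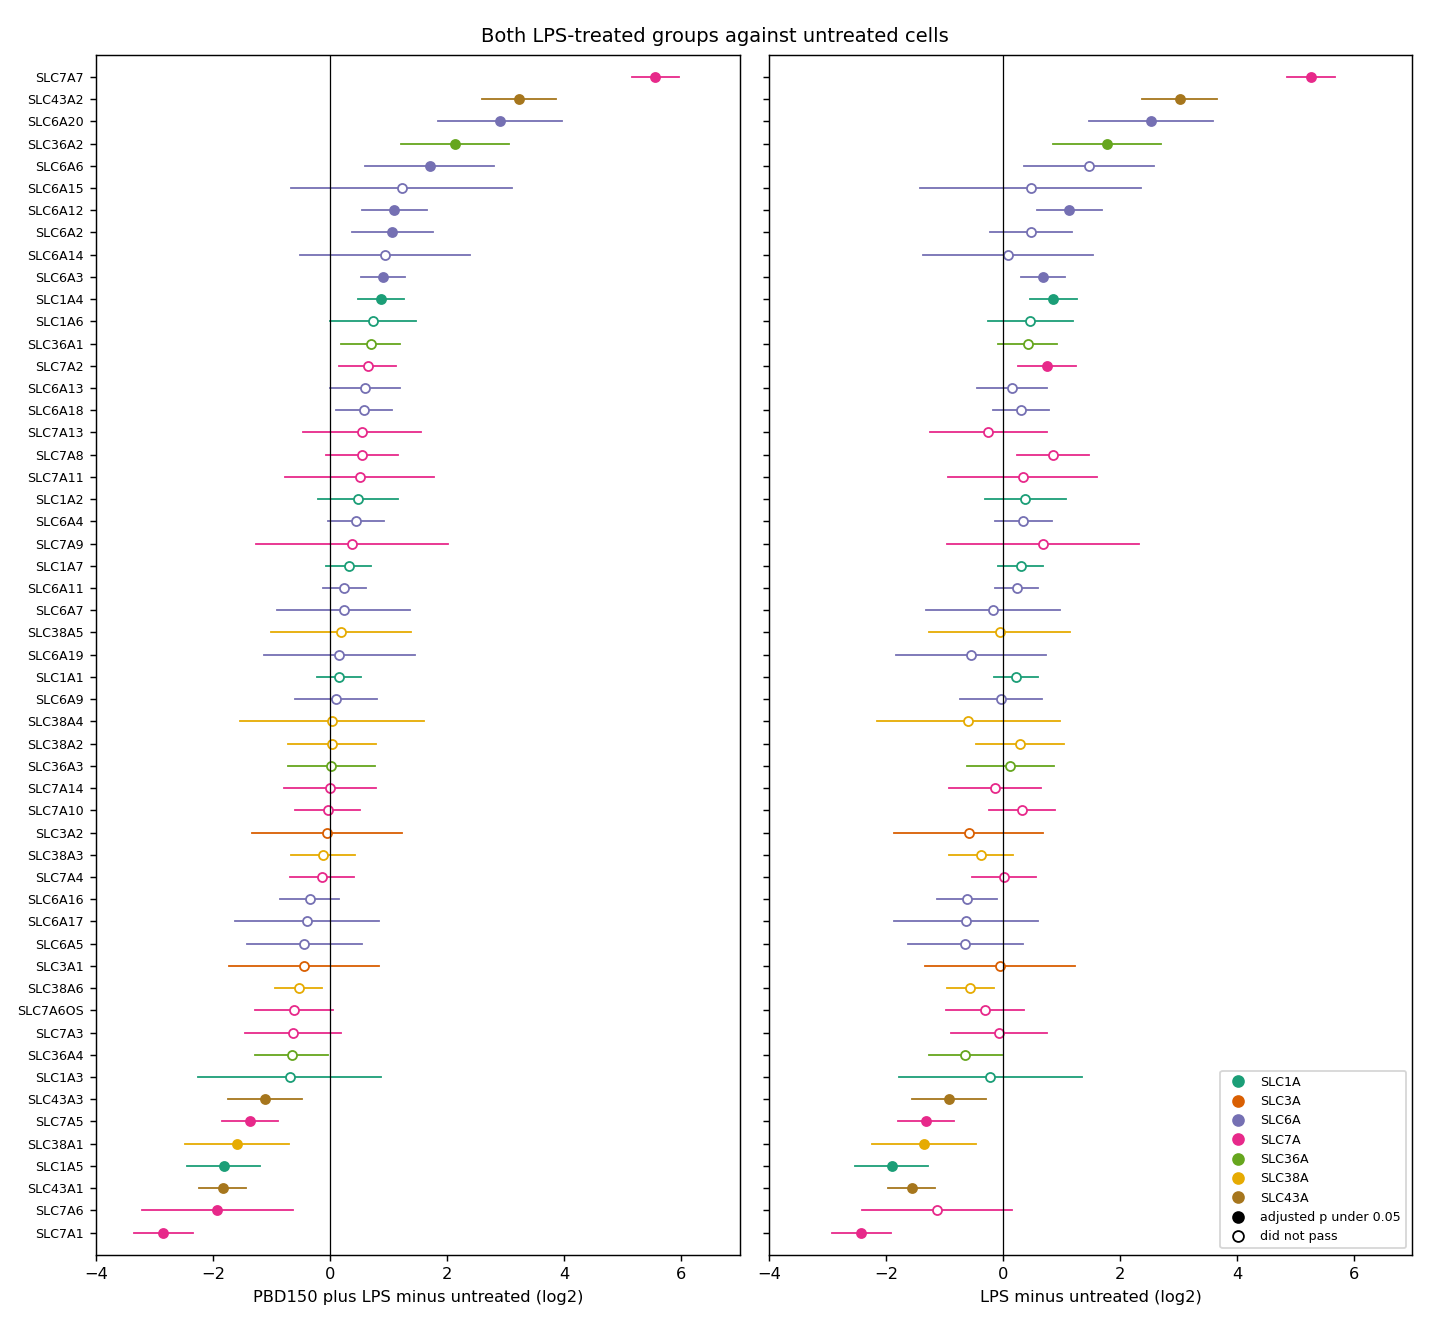
Difference in log2 intensity from untreated cells with its 95% interval (horizontal axis) for each gene (rows, ordered by the PBD150 plus LPS difference), with PBD150 plus LPS on the left and LPS on the right. Filled points passed an adjusted p of 0.05, and the range runs from SLC7A1, at -2.85 with PBD150 plus LPS and -2.42 with LPS, to SLC7A7, at 5.56 with PBD150 plus LPS and 5.26 with LPS.

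Promoter sequence was taken from RefSeq windows of GRCh38.p14, 250 bases before to 50 after each annotated start, and 39 of the 53 genes had a window there. The letters TGATGNAA on either strand, a form of the amino acid response element bound by the transcription factor ATF4, lay in a window of 6 of these 39 genes (15.4%), against 4.46% of all 27305 genes with a window. These were SLC1A3, SLC1A4, SLC1A5, SLC3A2, SLC7A1 and SLC38A1. The following stretches run from 100 bases before to 30 after the start, 5′ to 3′ on the gene's strand, with the matched letters in capitals. They show 4 of these genes that passed the test with LPS, SLC7A1 (chr13:29595659-29595788, minus strand), SLC1A5 (chr19:46784785-46784914, minus), SLC38A1 (chr12:46266487-46266616, minus) and SLC1A4 (chr2:64989299-64989428, plus).
SLC7A1: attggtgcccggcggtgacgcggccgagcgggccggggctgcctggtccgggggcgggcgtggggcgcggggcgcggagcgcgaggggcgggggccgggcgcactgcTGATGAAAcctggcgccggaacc
SLC1A5: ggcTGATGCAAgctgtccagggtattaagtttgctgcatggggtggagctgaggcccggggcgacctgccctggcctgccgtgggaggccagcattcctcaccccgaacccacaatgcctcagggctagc
SLC38A1: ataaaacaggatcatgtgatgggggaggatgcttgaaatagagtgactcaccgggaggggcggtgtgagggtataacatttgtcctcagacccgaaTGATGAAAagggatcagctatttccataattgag
SLC1A4: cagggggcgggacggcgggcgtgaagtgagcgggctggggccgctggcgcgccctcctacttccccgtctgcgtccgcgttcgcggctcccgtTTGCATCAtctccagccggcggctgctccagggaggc
With LPS the first 3 of these genes were lower and SLC1A4 was higher, so genes with the letters went in both directions. SLC1A5 had 3 windows and SLC38A1 and SLC1A4 had 2 each, of which the first listed one with the letters is shown. A match is a description of letters in a window and not a site.

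SLC7A7 had no TGATGNAA match and is shown because it moved most. Its window at chr14:22815406-22815535 (minus strand), 1 of 3 for the gene, held the letters TTGCNNAA 2 times, a form of the C/EBP motif. Other windows of SLC7A7 held TGACNNNGC, the antioxidant response element core, and CACGTG, an E-box.
SLC7A7: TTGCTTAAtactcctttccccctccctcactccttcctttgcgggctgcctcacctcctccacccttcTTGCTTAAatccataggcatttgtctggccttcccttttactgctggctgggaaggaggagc
TTGCNNAA lay in windows of 5 of 39 member genes (12.8%) and 12.7% of all genes. Of the other motifs searched on both strands, CACGTG (an E-box) lay in 9 member genes (23.1%, all genes 8.77%), TGANTCA (AP-1) in 9 (23.1%, all genes 9.37%), TGACNNNGC (antioxidant response element core) in 7 (17.9%, all genes 16.1%), GAGGAAGT (PU.1 core) in 2 (5.13%, all genes 3.15%) and a kappaB motif in 0 (all genes 0.678%). Matches to different motifs overlapped once, TGACNNNGC and TGANTCA in SLC3A2. Genes differ in how many windows they have, with 58 windows for the 39 member genes and 35116 for all 27305. By window, TGATGNAA lay in 10.3% of member windows (all windows 3.62%), CACGTG in 15.5% (7.26%) and TGANTCA in 17.2% (7.71%). TGACNNNGC lay in 12.1% (13.3%), TTGCNNAA in 8.62% (10.5%) and GAGGAAGT in 3.45% (2.59%). No test of these shares was run.

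Among the light chains and their partners, SLC7A7 rose with LPS while SLC7A5 fell. SLC7A7 encodes y+LAT1, which exports cationic amino acids in exchange for neutral ones and sodium and whose loss causes lysinuric protein intolerance. SLC7A7 read 14.88, 14.99 and 14.99 in cultures 1, 2 and 3 with PBD150 plus LPS, 14.45, 14.82 and 14.69 with LPS, and 9.54, 9.33 and 9.30 untreated. Every treated culture lay far above every untreated one. In deposited intensity these were 29523 to 37105 with PBD150 plus LPS, 29307 to 31800 with LPS and 570 to 636 untreated. The rise was 5.26 ± 0.18 (log2, SE, n = 3 cultures a group, limma adjusted p = 2.26e-06) with LPS, or 38.4-fold, and 5.56 ± 0.18 (limma adjusted p = 1.57e-06) with PBD150 plus LPS, or 47.3-fold. In a bulk sample of RNA, more cells with a transcript and more of it per cell cannot be told apart.

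SLC7A5 encodes LAT1, the exchanger of large neutral amino acids that pairs with SLC3A2. Its level was 10.83, 10.36 and 10.62 with PBD150 plus LPS, 10.36, 10.67 and 10.92 with LPS, and 11.96, 11.97 and 11.97 untreated. The treated cultures all lay below the untreated ones, which differed by little among themselves. SLC7A5 fell by 1.32 on the log2 scale with LPS (SE 0.21, limma adjusted p = 0.00255) and by 1.36 with PBD150 plus LPS (SE 0.21, limma adjusted p = 0.00186). The SLC3A2 probe, for the CD98 heavy chain that pairs with both, passed in neither comparison. SLC3A2 read 12.81, 12.68 and 12.68 with PBD150 plus LPS, 10.63, 13.11 and 12.83 with LPS, and 12.73, 12.82 and 12.79 untreated. LPS culture 1 lay below every other culture. It was low on each of its 3 arrays, with deposited intensities of 2202, 1737 and 1793, against 7054 to 10992 on the 6 arrays of the other LPS cultures. The LPS difference of SLC3A2 was -0.59 ± 0.56 (limma adjusted p = 0.507) with that culture and 0.19 without it, and the PBD150 plus LPS difference from untreated was -0.057 ± 0.56 (limma adjusted p = 0.955).

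The other light chains were dimmer or did not pass in both comparisons. SLC7A6, which encodes y+LAT2, read 3.32, 4.48 and 5.84 with PBD150 plus LPS, 5.46, 5.77 and 4.79 with LPS, and 6.40, 6.39 and 6.63 untreated. All treated cultures lay below the untreated ones, and 7 of the 9 PBD150 plus LPS arrays were above noise. It fell by 1.93 on the log2 scale with PBD150 plus LPS (SE 0.56, limma adjusted p = 0.0358) and was at -1.13 ± 0.56 with LPS (limma adjusted p = 0.196). The first of these calls was lost without PBD150 plus LPS culture 1 or 2 or any 1 untreated culture (adjusted p 0.0815 to 0.0959), without scaling between arrays (-1.59, adjusted p = 0.0698) and with only the 2 groups in the fit (adjusted p = 0.0641), while the LPS difference passed with only its 2 groups in the fit (adjusted p = 0.0354) and with a pseudocount of 16 (-0.86, adjusted p = 0.0392). SLC7A8, which encodes LAT2, read 6.95, 6.21 and 6.92 with PBD150 plus LPS, 7.15, 6.99 and 6.88 with LPS, and 5.80, 6.14 and 6.51 untreated. Its LPS cultures all lay above the untreated ones, yet its differences of 0.86 ± 0.27 with LPS (limma adjusted p = 0.0534) and 0.54 ± 0.27 with PBD150 plus LPS (limma adjusted p = 0.18) did not pass. With LPS SLC7A8 passed under 7 of 18 alternatives, among them no scaling between arrays (1.30, adjusted p = 0.0316), a pseudocount of 16 (0.72, adjusted p = 0.022) and leaving out PBD150 plus LPS culture 2.

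SLC7A10, the alanine, serine and cysteine exchanger Asc-1, read 6.25, 6.11 and 6.28 with PBD150 plus LPS, 6.23, 7.08 and 6.43 with LPS, and 6.07, 6.25 and 6.44 untreated. The 3 groups overlapped, and its differences were 0.32 with LPS and -0.044 with PBD150 plus LPS. SLC7A11, the light chain of the cystine and glutamate exchanger xCT, read 1.36, 1.20 and 1.72 with PBD150 plus LPS, 2.58, 0.00 and 1.20 with LPS, and 0.96, 1.22 and 0.59 untreated. These values lie under the noise limit on all 27 arrays, so this probe gave no measure of a difference. The SLC3A1 heavy chain, which serves renal cystine uptake with SLC7A9, read 4.85, 2.88 and 5.31 with PBD150 plus LPS, 4.53, 5.04 and 4.65 with LPS, and 4.70, 5.18 and 4.49 untreated. Only PBD150 plus LPS culture 2 stood apart, and neither difference passed (limma adjusted p = 0.966 with LPS and 0.608 with PBD150 plus LPS). The SLC7A9 probe was above noise on 1 of 27 arrays.

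The cationic amino acid transporters that work without a heavy chain differed in direction. SLC7A1, whose product is the widely expressed arginine and lysine importer CAT1, read 6.33, 6.72 and 6.30 with PBD150 plus LPS, 7.13, 6.95 and 6.56 with LPS, and 9.42, 9.34 and 9.14 untreated. Treated and untreated cultures lay far apart. SLC7A1 was 5.36-fold lower with LPS (-2.42 ± 0.22 on the log2 scale, limma adjusted p = 0.000162) and 7.21-fold lower with PBD150 plus LPS (-2.85 ± 0.22, limma adjusted p = 6.52e-05). SLC7A2, whose product CAT2 is the carrier that cytokines and LPS are known to raise in mouse macrophages, read 6.41, 6.60 and 6.71 with PBD150 plus LPS, 7.01, 6.47 and 6.57 with LPS, and 6.02, 6.10 and 5.69 untreated. The treated cultures all lay above the untreated ones. SLC7A2 rose by 0.75 ± 0.22 with LPS (limma adjusted p = 0.0381), a call lost without any 1 LPS or untreated culture (adjusted p 0.0513 to 0.136) or without PBD150 plus LPS culture 2 (adjusted p 0.0558), with median centring (0.69, adjusted p = 0.0765) and with only the 2 groups in the fit (adjusted p = 0.0594). Its difference with PBD150 plus LPS was 0.64 ± 0.22 (limma adjusted p = 0.0601) and passed under 5 of 18 alternatives, among them no scaling between arrays (0.91, adjusted p = 0.0332). SLC7A3, SLC7A4 and SLC7A14, of the same branch, passed in neither comparison.

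In the SLC1 family both carriers of small neutral amino acids passed, in opposite directions, and none of the 5 glutamate transporters did. Of the 7 SLC1 genes 14.3% were higher and 14.3% lower in each comparison with untreated cells. The background was near, at 13.5% and 15.4% with LPS and 15.3% and 17.9% with PBD150 plus LPS. SLC1A5 encodes ASCT2, a main route of glutamine entry in growing cells. SLC1A5 read 11.78, 11.39 and 11.16 with PBD150 plus LPS, 10.81, 11.69 and 11.58 with LPS, and 13.26, 13.25 and 13.29 untreated. The untreated cultures lay close together and above all treated ones. It was 3.74-fold lower with LPS (-1.90 ± 0.27, limma adjusted p = 0.00144) and 3.54-fold lower with PBD150 plus LPS (-1.82 ± 0.27, limma adjusted p = 0.00157). SLC1A4 encodes ASCT1, which carries alanine, serine and cysteine. SLC1A4 read 13.40, 12.99 and 13.25 with PBD150 plus LPS, 13.27, 13.14 and 13.20 with LPS, and 12.38, 12.32 and 12.32 untreated. Treated cultures were all higher, by 0.86 ± 0.17 with LPS (limma adjusted p = 0.00777) and 0.87 ± 0.17 with PBD150 plus LPS (limma adjusted p = 0.00652). Median centring in place of quantile normalisation ended both calls (0.74, adjusted p = 0.0714, and 0.69, adjusted p = 0.0847). The glutamate transporters SLC1A1, SLC1A2, SLC1A3, SLC1A6 and SLC1A7 were at -0.22 to 0.47 with LPS.

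**Figure D3:**
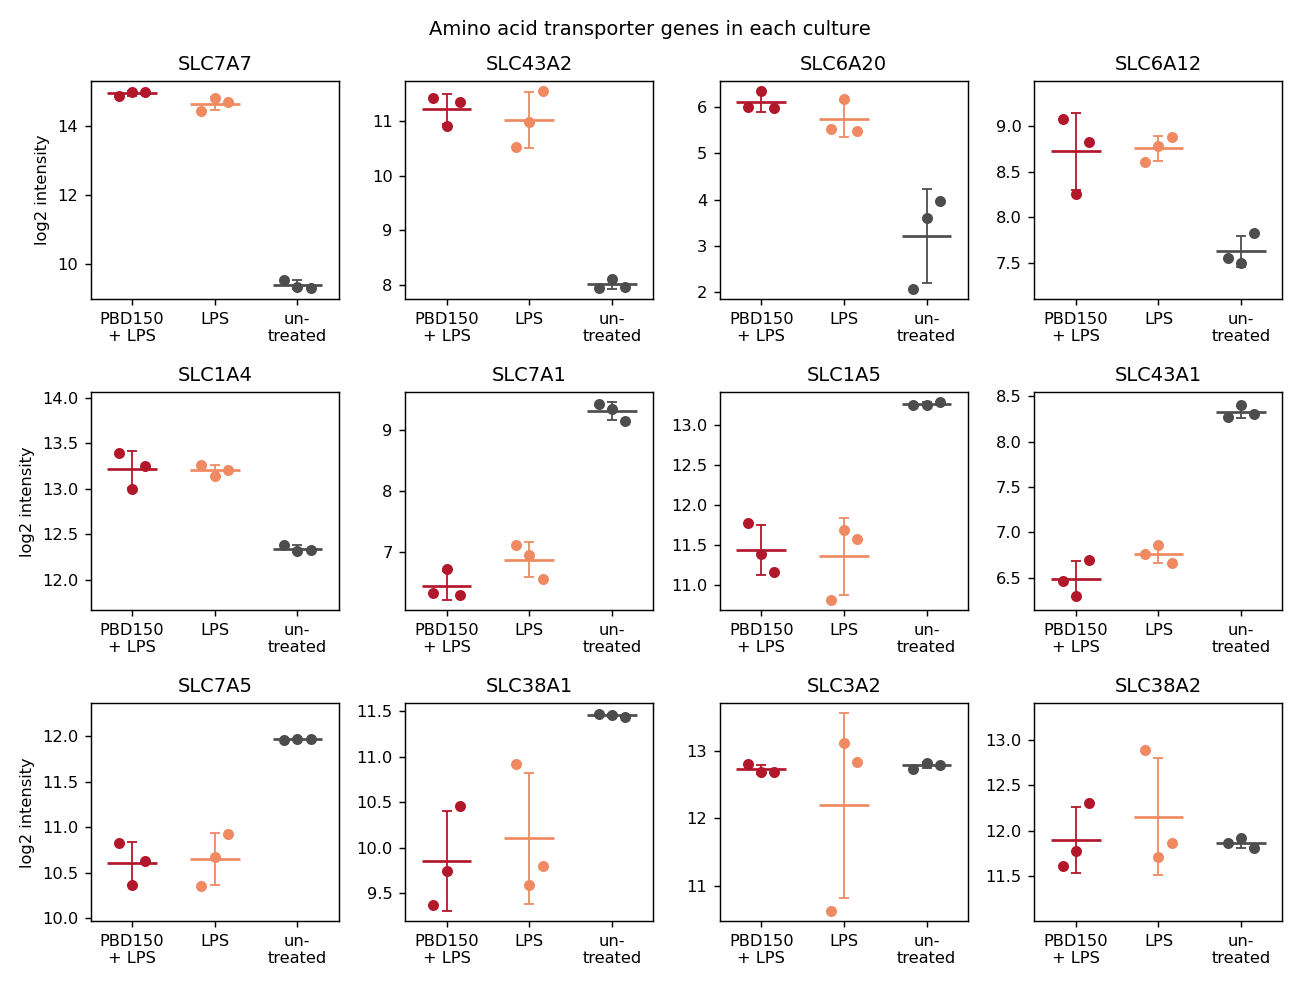
Log2 intensity (vertical axes, which do not start at 0) of 12 genes in the 3 cultures of each group (points), with the mean (line) and SD (bar). The treated cultures of SLC7A7 lie at 14.45 to 14.99 and the untreated ones at 9.30 to 9.54, while LPS culture 1 of SLC3A2 lies at 10.63, under every other culture.

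Of the SLC38 glutamine carriers, 1 of 6 passed, SLC38A1, which was lower in both comparisons. That share of 16.7% is near the background of 15.4% lower with LPS and 17.9% with PBD150 plus LPS. SLC38A6 narrowly missed, at -0.56 with LPS (limma adjusted p = 0.0533) and -0.54 with PBD150 plus LPS (limma adjusted p = 0.0536). Under some alternatives SLC38A6 passed in both comparisons, among them a pseudocount of 16 and array weights. SLC38A1, or SNAT1, read 9.37, 9.74 and 10.45 with PBD150 plus LPS, 10.92, 9.58 and 9.80 with LPS, and 11.47, 11.45 and 11.44 untreated. All treated cultures lay below the untreated ones and varied more. It fell by 1.35 on the log2 scale with LPS (SE 0.39, limma adjusted p = 0.0377) and by 1.60 with PBD150 plus LPS (SE 0.39, limma adjusted p = 0.0168). The first call was lost without PBD150 plus LPS culture 2, LPS culture 2 or 3, or any 1 untreated culture (adjusted p 0.0551 to 0.118), and also without scaling between arrays (-1.02, adjusted p = 0.117) and with median centring (-1.50, adjusted p = 0.0532). The second call was lost without PBD150 plus LPS culture 1 or 2 or untreated culture 2 (adjusted p 0.0515 to 0.0628). Another SLC38A1 probe was at -0.85 with LPS (limma adjusted p = 0.163) and fell by 1.42 with PBD150 plus LPS (limma adjusted p = 0.0282). SLC38A2, or SNAT2, the member induced when amino acids run short, read 11.61, 11.77 and 12.30 with PBD150 plus LPS, 12.89, 11.71 and 11.86 with LPS, and 11.87, 11.92 and 11.81 untreated. These groups overlapped, and LPS culture 1 was the highest. Its differences were 0.29 ± 0.33 with LPS and 0.029 ± 0.33 with PBD150 plus LPS, and without LPS culture 1 the first was -0.081.

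All 3 SLC43 genes passed, SLC43A2 upwards and the others downwards. The background was 13.5% higher and 15.4% lower with LPS, and 15.3% and 17.9% with PBD150 plus LPS. With only 3 genes these calls are not a result about the family. SLC43A2 encodes LAT4, a facilitative carrier of branched-chain amino acids, phenylalanine and methionine. SLC43A2 read 11.43, 10.91 and 11.34 with PBD150 plus LPS, 10.53, 10.98 and 11.55 with LPS, and 7.94, 8.11 and 7.96 untreated. All treated cultures lay above the untreated ones. It was 8.10-fold higher with LPS (3.02 ± 0.28, limma adjusted p = 0.000178) and 9.35-fold higher with PBD150 plus LPS (3.22 ± 0.28, limma adjusted p = 0.000113). SLC43A1, which encodes LAT3, with overlapping substrates, read 6.47, 6.30 and 6.69 with PBD150 plus LPS, 6.76, 6.87 and 6.66 with LPS, and 8.27, 8.40 and 8.31 untreated. Here the treated cultures all lay below the untreated ones. It was 2.96-fold lower with LPS (-1.56 ± 0.18, limma adjusted p = 0.000437) and 3.58-fold lower with PBD150 plus LPS (-1.84 ± 0.18, limma adjusted p = 0.000174). SLC43A3, a carrier of purine nucleobases, read 8.33, 8.01 and 9.05 with PBD150 plus LPS, 8.48, 8.61 and 8.85 with LPS, and 9.45, 9.56 and 9.72 untreated. The treated cultures again lay below the untreated ones. It fell by 0.93 on the log2 scale with LPS (SE 0.28, limma adjusted p = 0.0427) and by 1.11 with PBD150 plus LPS (SE 0.28, limma adjusted p = 0.018). The first call was lost without PBD150 plus LPS culture 1 or any 1 LPS or untreated culture (adjusted p 0.0591 to 0.127), and the second was lost without PBD150 plus LPS culture 1 or 2 or untreated culture 2 or 3 (adjusted p 0.056 to 0.0651). Without scaling between arrays both calls were lost (-0.63, adjusted p = 0.18, with LPS and -0.95, adjusted p = 0.0612, with PBD150 plus LPS).

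In the SLC6 family 3 of 17 genes were higher with LPS, 5 with PBD150 plus LPS, and 0 were lower in either (limma, 1 and 0 lower at an unadjusted p under 0.05). The background was 13.5% higher and 15.4% lower with LPS, and 15.3% and 17.9% with PBD150 plus LPS, so the LPS count of higher genes is near it. SLC6A20 encodes the proline carrier SIT1. SLC6A20 read 6.0, 6.35 and 5.98 with PBD150 plus LPS, 5.54, 6.19 and 5.48 with LPS, and 2.06, 3.60 and 3.98 untreated. It was above noise on all 18 treated arrays and on 2 of 9 untreated ones. The rise was 2.52 ± 0.46 with LPS (limma adjusted p = 0.00516) and 2.90 ± 0.46 with PBD150 plus LPS (limma adjusted p = 0.00229), sizes that lean on values near the noise, and a pseudocount of 16 gave 1.40 and 1.68. SLC6A12, the carrier BGT1 of betaine and GABA, read 9.08, 8.25 and 8.83 with PBD150 plus LPS, 8.61, 8.79 and 8.88 with LPS, and 7.55, 7.49 and 7.82 untreated. All treated cultures were higher, by 1.14 ± 0.24 with LPS (limma adjusted p = 0.0105) and 1.10 ± 0.24 with PBD150 plus LPS (limma adjusted p = 0.0108).

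The other SLC6 calls were on carriers of amines and taurine. SLC6A3, the dopamine transporter, read 8.94, 8.68 and 8.75 with PBD150 plus LPS, 8.51, 8.62 and 8.57 with LPS, and 7.80, 7.90 and 7.98 untreated. The groups did not overlap, and the rise was 0.68 ± 0.16 with LPS (limma adjusted p = 0.0193) and 0.90 ± 0.16 with PBD150 plus LPS (limma adjusted p = 0.00448). The LPS call was lost without LPS culture 2 or 3 or any 1 untreated culture (adjusted p 0.0534 to 0.0778) and with median centring (0.55, adjusted p = 0.0834). SLC6A2, the noradrenaline transporter, read 6.08, 6.40 and 5.61 with PBD150 plus LPS, 5.91, 5.04 and 5.40 with LPS, and 4.62, 5.23 and 5.05 untreated. The LPS and untreated cultures overlapped, and it rose by 1.06 ± 0.31 with PBD150 plus LPS (limma adjusted p = 0.0335) and was at 0.48 ± 0.31 with LPS (limma adjusted p = 0.31). That call was lost without PBD150 plus LPS culture 1 or 2 or any 1 untreated culture (adjusted p 0.0545 to 0.111).

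SLC6A6, the taurine transporter, read 5.57, 5.18 and 5.73 with PBD150 plus LPS, 4.09, 5.69 and 6.02 with LPS, and 3.44, 3.62 and 4.30 untreated. LPS culture 1 fell within the untreated range, and the untreated probe was above noise on 5 of 9 arrays. It rose by 1.70 ± 0.48 with PBD150 plus LPS (limma adjusted p = 0.0326), a call lost without any 1 PBD150 plus LPS culture or untreated culture 1 or 2 (adjusted p 0.0583 to 0.1). With LPS SLC6A6 was at 1.47 ± 0.48 (limma adjusted p = 0.0619), and without LPS culture 1 it rose by 2.06 (adjusted p = 0.00307). These sizes lean on untreated values near the noise, and a pseudocount of 16 gave 1.0 with PBD150 plus LPS (adjusted p = 0.0185) and 0.88 with LPS (adjusted p = 0.0393).

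Of the 4 SLC36 genes, SLC36A2, a carrier of proline and glycine, passed in both comparisons (limma adjusted p = 0.0139 with LPS and 0.00531 with PBD150 plus LPS), but it was above noise on 1 of 9 PBD150 plus LPS arrays, 0 LPS arrays and 0 untreated arrays, so no fold is given. SLC36A1, the lysosomal carrier PAT1, was at 0.42 with LPS (limma adjusted p = 0.226) and 0.69 with PBD150 plus LPS (limma adjusted p = 0.0518), and neither passed. The PBD150 plus LPS difference of SLC36A1 passed under some alternatives, among them no scaling between arrays, a pseudocount of 16 and array weights. SLC36A4 was at -0.64 with LPS and -0.66 with PBD150 plus LPS and did not pass either. It was called lower in both comparisons with array weights and with all 27 arrays fitted with a random block for each culture.

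No transporter passed between PBD150 plus LPS and LPS. The comparison asked what the inhibitor changed in LPS-treated cells, and limma called 0 of 53 genes higher and 0 lower (background 0% and 0% of named genes). At an unadjusted p under 0.05 there were also 0 of 53 in either direction, against 1.65% of named genes higher and 2.81% lower. Differences ran from -0.79 for SLC7A6 to 0.85 for SLC6A14, with a smallest adjusted p of 0.906. SLC6A14 was above noise on 4 of 27 arrays. All PBD150 plus LPS cultures lay above all LPS cultures for 4 genes, SLC6A3, SLC6A18, SLC7A7 and SLC7A13, or 7.55% against a background of 3.28%, and below them for 0 of 53 (background 4.46%). SLC7A7 was at 0.30 in this comparison (95% interval -0.11 to 0.70), SLC6A3 at 0.22 (-0.15 to 0.60) and SLC6A18 at 0.27 (-0.20 to 0.75), while SLC7A13 was above noise on 9 of 27 arrays.

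How far these data limit a PBD150 effect differed by gene. The 95% interval lay inside a 2-fold change in either direction for 30 of 53 genes (56.6%, background 56.0%) and inside a 4-fold change for 48. For SLC7A1 the difference was -0.43 (-0.93 to 0.070), for SLC1A5 0.082 (-0.54 to 0.70), for SLC7A5 -0.044 (-0.52 to 0.44) and for SLC43A2 0.21 (-0.43 to 0.84). For SLC3A2 it was 0.53 (-0.75 to 1.81), and without LPS culture 1 it was -0.25. A p that misses the threshold does not show that PBD150 left these genes as they were.

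Of the 53 genes 33 were above 0 with PBD150 (62.3%, against 49.2% of all named genes), and 24 without scaling between arrays, where the median of all named genes was itself at -0.17 and 32 lay above that median. These counts include the 3 genes whose probes were above noise on no array and others that were above it on few, and no test of them was run.

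**Figure D4:**
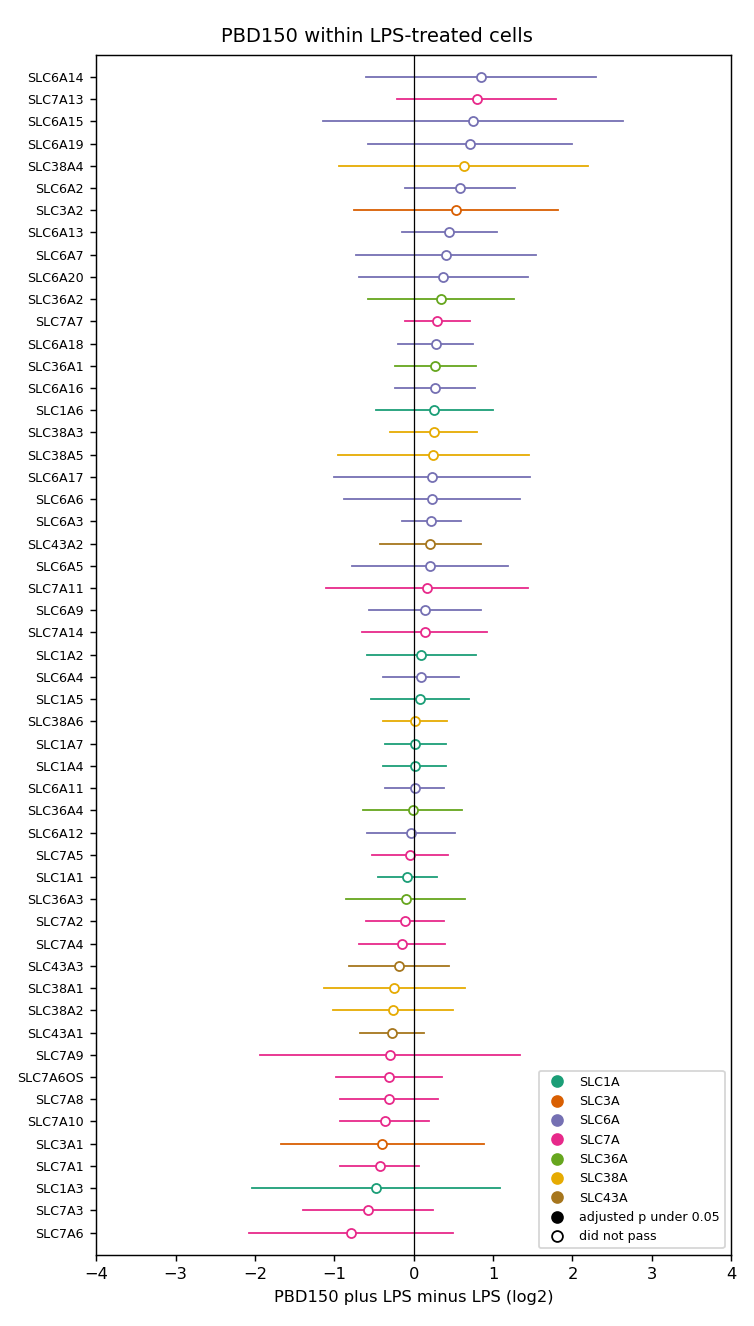
Difference in log2 intensity between PBD150 plus LPS and LPS with its 95% interval (horizontal axis) for each of the 53 genes (rows, ordered by the difference). All points are open since none passed, and they run from -0.79 for SLC7A6 to 0.85 for SLC6A14.

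Other genes of amino acid handling were read against these carriers, from lists chosen with earlier results of these data known. Some genes are on more than 1 list, among them PSAT1, PHGDH, CHAC1 and SESN2, so counts of different lists are not independent. Of 17 measured enzymes of glutamine and glutamate use, 0 were higher and 8 lower with LPS (limma, background 13.5% and 15.4%). With PBD150 plus LPS 0 were higher and 10 lower (background 15.3% and 17.9%). Their median difference was -1.21 with LPS and -1.41 with PBD150 plus LPS. CTPS1, which makes CTP with glutamine nitrogen, was at -2.60 with LPS, CAD, which starts pyrimidine synthesis from glutamine, at -2.48, ALDH18A1, which turns glutamate towards proline, at -2.62, and PFAS, of purine synthesis, at -1.63. Of 11 enzymes of serine, glycine and branched-chain amino acid metabolism, 0 were higher and 7 lower with LPS (background 13.5% and 15.4%). With PBD150 plus LPS 1 was higher and 7 lower (background 15.3% and 17.9%). PSAT1 and PHGDH, both of serine synthesis, fell by 2.12 and 1.55 on the log2 scale with LPS, GCAT, of threonine breakdown, by 1.71 and BCAT2, the mitochondrial branched-chain aminotransferase, by 0.98.

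Enzymes of arginine and polyamine metabolism went both ways, with 4 of 12 higher and 3 lower in both comparisons (background 13.5% higher and 15.4% lower with LPS, 15.3% and 17.9% with PBD150 plus LPS). SAT1, which acetylates polyamines for export, rose by 3.75 with LPS, a value limited by the scanner since 8 of its 9 arrays were at or above 0.99 of the array maximum. ARG2, the mitochondrial arginase, rose by 2.32, while ODC1, which makes putrescine from ornithine, fell by 3.22 on the log2 scale and AMD1, which supplies the aminopropyl donor, by 1.48. Of 10 glutathione genes, 2 were higher and 2 lower with LPS, and 2 higher and 3 lower with PBD150 plus LPS, and the shares with LPS are near the same background. CHAC1, which degrades glutathione, rose by 1.19 with LPS and GGT5, of the gamma-glutamyl transferase family, by 1.36, while CBS, of cysteine synthesis, fell by 1.08 on the log2 scale and GSR, glutathione reductase, by 1.43.

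Of 16 amino acid response genes, 6 were higher and 3 lower in both comparisons (background 13.5% higher and 15.4% lower with LPS, 15.3% and 17.9% with PBD150 plus LPS), and the lower share is near the background. DDIT4, an inhibitor of mTORC1, rose by 3.04 with LPS, CEBPB by 1.51 and ATF3 by 1.49, both transcription factors, and PSAT1 was among those that fell. Of 18 genes of amino acid sensing towards mTORC1, 4 were higher and 3 lower with LPS, and 4 higher and 5 lower with PBD150 plus LPS, of which the lower share with LPS is near the 15.4% of all named genes. SESN2, a leucine sensor, rose by 1.01 with LPS, SESN1 by 1.67 and LAMTOR5, of the Ragulator complex, by 0.86. FLCN, which acts on the Rag GTPases, was at -2.54, with 2 of 9 LPS arrays above noise. Of 16 amino acid and peptide carriers of other families, 4 were higher and 1 lower in both comparisons, against the same background. SLC15A3, a lysosomal peptide and histidine carrier, rose by 3.58 with LPS, SLC17A7, a vesicular glutamate carrier, by 1.50 and SLC25A12, the mitochondrial aspartate and glutamate carrier, by 1.17, while SLC25A38, the mitochondrial glycine carrier, fell by 1.42 on the log2 scale. In each of these 7 lists 0 genes passed between PBD150 plus LPS and LPS.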

How the data were processed

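RNA of 27 U937 samples was labelled with Cy5 and read on a Phalanx Human OneArray, per the labels. The authors deposited 1 linear spot intensity per probe and array, with values below 0, so background was subtracted before deposit. Which scanner, background method or scaling they used was not given in the sources used here. Intensities were floored at 1 (4.35% to 7.59% of an array), log2 transformed, quantile normalised over 27 arrays and averaged over the 3 arrays of a biological replicate. The labels call the replicates biological, and p-values measure only the spread between them. The small number of cultures, 3 in each group, limits the precision. limma 3.58.1 in R 4.3.3 fitted group means over 9 cultures, with two-sided tests adjusted by Benjamini-Hochberg over 30968 probes at 0.05. Of these probes 17397 had 1 symbol, 0 had several and 13571 had none in the probe table. No set test was run. Scripts were tested on simulated data. The members and lists were chosen with earlier results of these data known. Values in every culture are given for members that passed in a comparison and were above noise on every array of a group, and for 11 transporters listed by symbol. From each list up to 4 genes with the smallest p with LPS are named. Alternatives changed the scaling, the handling of low values, the probe choice, the fit and the replicates used.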

Additional observations from a re-analysis of the deposited data

How the results depend on the processing

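Of the calls on transporters with LPS, those of SLC7A7, SLC43A2, SLC6A12, SLC6A20, SLC7A1, SLC1A5, SLC7A5 and SLC43A1 passed under all 18 alternatives, in both comparisons with untreated cells, as did SLC6A3 with PBD150 plus LPS. Median centring gave 4 genes higher with LPS against 8, and 4 were lost, SLC1A4, SLC36A2, SLC6A3 and SLC7A2, and of the lower genes SLC38A1 was lost. Array weights gave 15 higher and 11 lower with PBD150 plus LPS. The share of all named genes called under each alternative was not counted. The member counts under alternatives therefore have no background beside them and are not a result about the families. Leaving out 1 culture gave 5 to 8 higher and 4 to 7 lower with LPS, the fewest higher without LPS culture 2, and 7 to 13 higher and 4 to 8 lower with PBD150 plus LPS, with 13 higher without PBD150 plus LPS culture 3 and 4 lower without PBD150 plus LPS culture 1 or 2 or untreated culture 2. Between PBD150 plus LPS and LPS 0 genes passed under every alternative (limma). Without scaling, the median of all named genes was 0.38 with LPS and 0.25 with PBD150 plus LPS, and all 14 and 16 called genes stayed on their side of it; the calls were then 12 higher and 4 lower, and 13 and 5. The replicate block gave 7 higher and 5 lower with LPS and 8 and 6 with PBD150 plus LPS. For LPS it lost SLC6A3, SLC7A2 and SLC38A1 and gained SLC6A6, and for PBD150 plus LPS it lost SLC6A2 and SLC7A6. Deviations of same-numbered cultures from their group means correlated at -0.22 to 0.04. With 3 cultures a group, such values cannot show whether equal numbers mark a shared day. Differences that changed sign had not passed, and the cause was not tested. With LPS these were SLC3A1 without scaling (0.33), SLC7A11 with median centring (-0.0454), and with array weights SLC38A2 (-0.00215), SLC3A1 (0.00508) and SLC7A11 (-0.37). With PBD150 plus LPS they were SLC3A2 (0.0882) and SLC7A10 (0.24) without scaling, and SLC38A2 with median centring (-0.19) or array weights (-0.0906). Between PBD150 plus LPS and LPS they were SLC1A4 (-0.21), SLC1A5 (-0.14) and SLC43A2 (-0.000514) without scaling, SLC1A4 with median centring (-0.0543), SLC7A11 with a pseudocount of 16 (-0.0176), and SLC1A5 (-0.058), SLC3A2 (-0.0445) and SLC6A6 (-0.20) with array weights. Leaving out 1 culture turned signs with LPS in SLC38A2 -0.0807 to 0.51, SLC3A1 -0.20 to 0.15, SLC3A2 -1.05 to 0.19 and SLC7A11 -0.32 to 0.97. With PBD150 plus LPS it did so in SLC38A2 -0.18 to 0.17, SLC3A1 -0.92 to 0.29 and SLC7A10 -0.13 to 0.048. Between PBD150 plus LPS and LPS it did so in SLC1A4 -0.0811 to 0.12, SLC1A5 -0.19 to 0.24, SLC38A1 -0.54 to 0.16, SLC38A2 -0.48 to 0.11, SLC3A1 -0.88 to 0.34, SLC3A2 -0.25 to 0.99, SLC43A2 -0.0398 to 0.47, SLC43A3 -0.48 to 0.0414, SLC6A12 -0.22 to 0.20, SLC6A6 -0.36 to 0.61, SLC7A11 -0.47 to 0.82, SLC7A2 -0.21 to 0.0556 and SLC7A5 -0.19 to 0.0936. SLC7A11 has no value with dim probes left out. Signal limits the 24 members that were not above noise on every array.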
